A study of Homo sapiens with 16 samples.

Results

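The genes described here encode core proteins of the splicing machinery and the heterogeneous nuclear ribonucleoproteins (hnRNPs). They were taken as all genes whose symbol starts with HNRNP, SRSF, SNRP, SF3A or SF3B and that have at least 1 probe set annotated to that symbol alone, which gave 47 of the 11963 genes on the arrays. The 47 genes comprised 19 hnRNP genes, 9 SRSF genes, 11 SNRP genes and 8 SF3A or SF3B genes, and together they had 106 probe sets. Each gene was represented by its brightest probe set, judged by the mean of the 16 arrays. Of the 47, 46 reached log2 4 on 2 or more arrays and were tested among 7304 genes. The exception was HNRNPA3P1, a pseudogene, which averaged 2.67 at 0 h.

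RNA came from A673, an established Ewing sarcoma cell line, as a single clone named Asp14 that carries a doxycycline-inducible knockdown construct against EWS-FLI1, the fusion transcription factor of these tumours. Every group shared that construct, with its tetracycline repressor vector, and was grown under Zeocin and Blasticidin selection. The 0 h cells (n = 4 arrays) were the controls, taken when doxycycline was added. The other cells had doxycycline at 1 ug/ml for 18 h or 36 h (3 arrays each), or for 53 h, 72 h or 96 h (2 arrays each). Since 0 h was the only control, doxycycline itself, time in culture and loss of the fusion cannot be told apart, and results from 1 clone may not hold for other clones.

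Splicing removes introns from pre-mRNA. In the spliceosome, U1 and U2 small nuclear ribonucleoproteins (snRNPs) recognise the 5' splice site and the branch point, and each snRNP holds a ring of Sm proteins and proteins of its own, several of which the SNRP genes encode. The SF3A and SF3B complexes belong to the U2 snRNP and anchor it at the branch site. SR proteins, from the SRSF genes, bind exons and mostly promote their inclusion. The hnRNPs coat pre-mRNA and often repress the use of splice sites. In Ewing sarcoma cells, the EWS part of the fusion comes from a family of RNA-binding proteins, and its FLI1 part carries an ETS domain that recognises DNA with a GGAA core.

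The 3' part of the fusion transcript is FLI1 sequence, so FLI1 was read first, and it was lower than at 0 h by a log2 change of -3.20 ± 0.14 (SE) at 18 h and by -3.08 to -3.67 at the later times (adjusted p = 5e-08 at 18 h, limma after Benjamini-Hochberg adjustment, as for every adjusted p given here). The upper quartile of the arrays lay between log2 8.08 and 8.18. CD99, NKX2-2 and STEAP1, which mark Ewing sarcoma lines, were above log2 4 on all 16 arrays, whereas CCK and PAX7 of the same list were below it on all. All 5 blood genes on the arrays were below log2 4 throughout, as were 5 of 6 epithelial genes (not KRT18) and 4 of 5 endothelial genes (not KDR, which reached 8.64). The summed linear signal of the epithelial genes ran from 436 to 853 at 0 h, 149 to 234 at 36 h and 1063 to 1071 at 96 h, and that of the endothelial genes from 32.6 to 36.2 at 0 h and 382 to 422 at 53 h. The part of these markers in the results was not tested, and PTPRC, EPCAM and PECAM1 were below log2 4 on every array. The 3' less 5' signal of the ACTB control probe sets, a sign of RNA quality, ran from 1.47 to 2.06 at 0 h, from 2.09 to 2.45 at 36 h and from 1.61 to 1.70 at 72 h, and its part in the results was not tested. Replicates 2 and 3 were close to each other at 0 h, 18 h and 36 h: over all tested genes their log2 values differed with an SD of 0.164 to 0.186, against 0.368 to 0.528 for the other pairs of those groups. No label ties the replicates to cultures of their own, and the p-values below then cover the scatter of these arrays alone, part or all of which may be technical.

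Most of the splicing genes were lower after doxycycline. At 18 h, 17 of the 46 tested genes were lower and 0 were higher (0 also at an unadjusted p under 0.05), where 14.7% of all 7304 genes were lower and 14.8% higher. At 36 h, 33 were lower and 4 higher, against 32.1% and 33.2% of all genes. At 53 h, 34 were lower and 1 higher (34.5% and 31.8% of all genes), at 72 h 35 and 1 (39.2% and 29.3%), and at 96 h 38 and 1 (35.7% and 25.1%). The median log2 change of the 46 genes was -0.15, -0.62, -0.64, -0.70 and -0.58 at these 5 times, and that of all genes tested was 0.02, 0.02, -0.01, -0.11 and -0.10. With an F test over the 5 changes, 43 of the 46 passed, beside 84% of all genes, so a change at some time was nearly as frequent outside the group.

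Counts at 18 h rested in part on 1 array. Without replicate 1 of 18 h the number lower was 10 in place of 17, and SRSF1, SRSF10, SNRPB, SNRPG, SF3A3, SF3B3 and HNRNPDL lost their call. It was 11 with replicates 2 and 3 averaged as 1 sample. Over all 7304 genes, the number lower at 18 h was 1072 in the main fit. It was 686 without replicate 1 of 18 h and 677 with replicates 2 and 3 averaged. In bulk RNA such as this, fewer cells expressing a gene and less RNA per cell cannot be told apart.

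**Figure D1:**
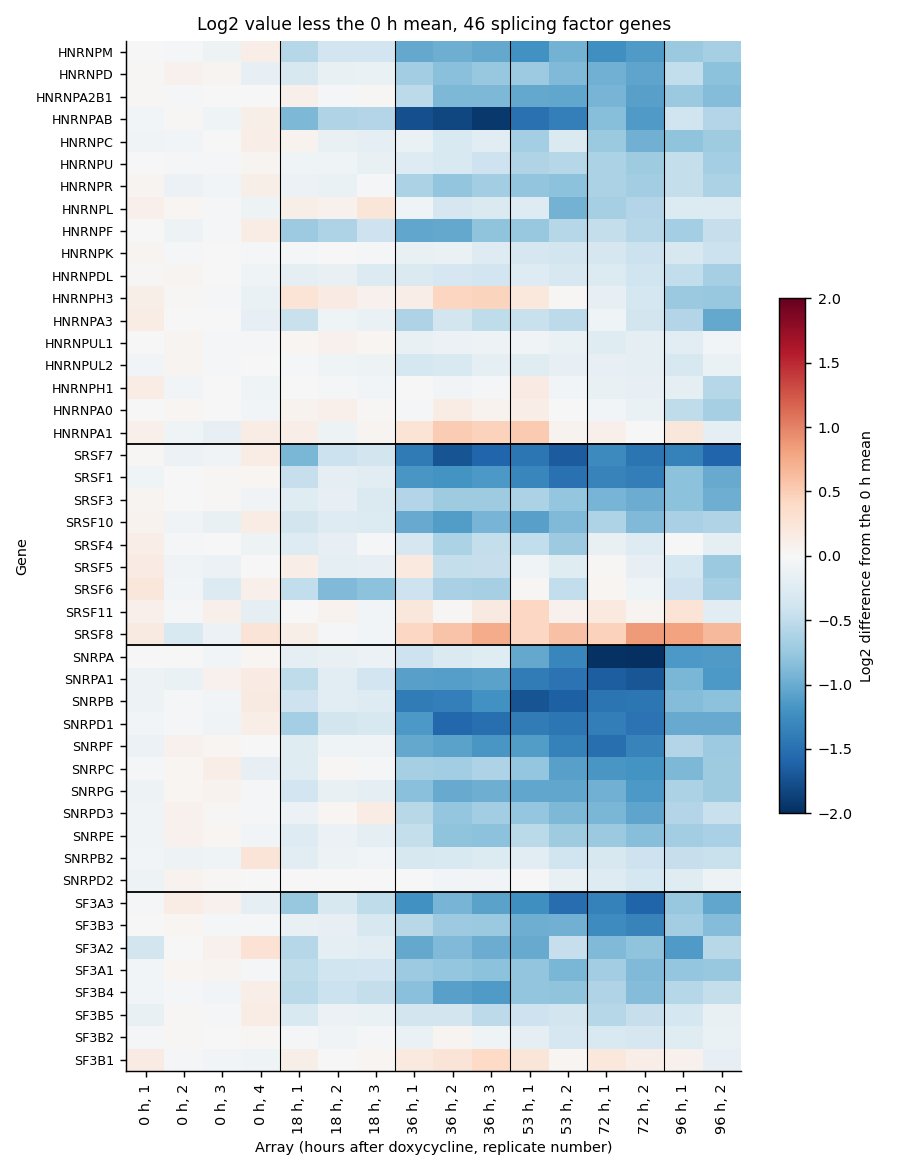
Log2 value of each of the 46 tested genes on each of the 16 arrays less that gene's mean at 0 h (colour, from -2 to 2), with genes in rows by family (hnRNP, SRSF, SNRP, SF3A and SF3B, separated by horizontal lines) and ordered by their change at 72 h. Arrays are in columns by hours and replicate number. Blue, meaning lower than at 0 h, fills most rows from 36 h on, and SRSF8 is the row that stays above 0 at 36 h and later.

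The time at which a gene was first called lower varied, and differences in timing were not tested. Among genes first called at 53 h or later, HNRNPC, HNRNPL, HNRNPH3 and HNRNPH1 had another probe set lower at 36 h. Among those first called at 36 h, HNRNPD and HNRNPK had another probe set lower at 18 h. Of the 46, 17 were first lower at 18 h, 16 at 36 h, 3 at 53 h (SF3B2, HNRNPC, HNRNPL), 3 at 72 h (SNRPD2, HNRNPH3, HNRNPUL1) and 3 at 96 h (SRSF5, HNRNPA0, HNRNPH1). At each of the 4 times from 36 h on, 29 genes were lower, and 16 of these were lower at 18 h too. Such runs over several times were not counted over all genes, so whether they are unusual was not tested. The 16 were HNRNPAB, HNRNPM, HNRNPF and HNRNPDL, then SRSF1, SRSF3, SRSF7 and SRSF10, then SNRPB, SNRPA1, SNRPG and SNRPD1, and SF3B3, SF3A1, SF3A3 and SF3B4. The 4 genes lower at no time were SF3B1, SRSF8, SRSF11 and HNRNPA1.

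Because so many of these genes moved together, their promoters are shown for what letters they share. RefSeq promoters of 300 bases (250 before the start site and 50 after it, GRCh38.p14) were found for 43 of the 46 genes, and were searched on both strands. The ETS word CCGGAAGT, which contains the GGAA core, was in 11 of the 43 (25.6%), against 9.3% of the promoters of the tested genes and 4.4% of all 27305 promoters. It was in 5 of the 7 SF3A and SF3B promoters found, in 3 of 10 SNRP, 2 of 9 SRSF and 1 of 17 hnRNP promoters. The stretches below are the 120 bases before the start site of those 5 and of SNRPB and SNRPA1, which are described later. Capitals mark the ETS word, or its reverse complement ACTTCCGG where the match is on the other strand.
SF3A1: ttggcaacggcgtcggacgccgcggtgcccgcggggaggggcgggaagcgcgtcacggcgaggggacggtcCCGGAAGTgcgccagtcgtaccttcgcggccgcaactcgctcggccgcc
SF3A2: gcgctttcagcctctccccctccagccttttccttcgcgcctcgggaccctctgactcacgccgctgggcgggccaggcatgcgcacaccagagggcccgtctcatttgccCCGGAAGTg
SF3A3: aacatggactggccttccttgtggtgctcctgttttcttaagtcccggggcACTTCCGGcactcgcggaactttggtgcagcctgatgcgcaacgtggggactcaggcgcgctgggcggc
SF3B2: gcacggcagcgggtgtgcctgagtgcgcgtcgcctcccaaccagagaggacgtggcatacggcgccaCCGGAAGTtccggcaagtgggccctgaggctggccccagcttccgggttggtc
SF3B4: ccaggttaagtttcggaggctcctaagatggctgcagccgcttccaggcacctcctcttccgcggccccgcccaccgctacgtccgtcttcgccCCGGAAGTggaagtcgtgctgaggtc
SNRPB: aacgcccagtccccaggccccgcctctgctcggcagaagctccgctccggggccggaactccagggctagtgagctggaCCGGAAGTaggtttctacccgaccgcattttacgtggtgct
SNRPA1: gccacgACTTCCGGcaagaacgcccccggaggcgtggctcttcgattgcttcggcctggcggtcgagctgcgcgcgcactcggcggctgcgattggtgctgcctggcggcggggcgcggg

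On GRCh38.p14 these are chr22:30356895-30357014 (minus strand) for SF3A1, chr19:2236704-2236823 (plus) for SF3A2, chr1:37990023-37990142 (minus) for SF3A3, chr11:66052244-66052363 (plus) for SF3B2, chr1:149927804-149927923 (minus) for SF3B4, chr20:2470790-2470909 (minus) for SNRPB and chr15:101295249-101295368 (minus) for SNRPA1. Counting the last base before the start site as -1, the word began at positions from -114 (SNRPA1) to -9 (SF3A2). The other 4 genes with the word were SNRPE, HNRNPD, SRSF4 and SRSF5. Of all 11, 9 were lower at 53 h, 72 h and 96 h. At these times 34, 35 and 38 of the 46 were lower, and 34.5%, 39.2% and 35.7% of all genes. SRSF4 was not called at 72 h (-0.20 ± 0.11) or 96 h (-0.10 ± 0.11), and SRSF5 was called at 96 h alone. The 2 SF3 promoters found without the word were those of SF3B5, which was lower at each time from 36 h on (-0.42, -0.39, -0.52 and -0.25), and SF3B1, which was lower at no time. Each of the 11 genes with the word was called lower at 1 or more times. All but 4 of the 46 genes were, so this count says little of the word. Those 4, SRSF8, SRSF11, SF3B1 and HNRNPA1, were not among the genes with it. Whether the word goes with a fall was not tested. SF3B1 has the E2F word TTTGGCGC, shown in capitals because E2F sites mark promoters of many cell cycle genes (chr2:197435029-197435148, minus strand).
SF3B1: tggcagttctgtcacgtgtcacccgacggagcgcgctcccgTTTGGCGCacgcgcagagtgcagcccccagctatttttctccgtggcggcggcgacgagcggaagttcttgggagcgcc

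Other words were searched in the same way. At least 1 of the E2F words TTTCCCGC, TTTGGCGC, TTTGCCGC and TTTCGCGC was in 5 of the 43 promoters (11.6%, against 5.8% of the tested genes' promoters and 3.3% of all), namely those of SNRPB, SRSF10, SF3B1, HNRNPA3 and HNRNPK. The E-box CACGTG was in 7 (16.3%, against 10.9% and 7.4%), 6 of them hnRNP genes. CCAAT was in 18 (41.9%, against 38.3% and 35.7%) and TATAAA in 6 (14.0%, against 5.5% and 12.0%). The repeat GGAAGGAA, which shares the GGAA core with the ETS word, was in 2, SRSF1 and SRSF7 (4.7%, against 3.4% and 3.6%). The word for NRF1 was in 0 (2.6% and 1.4%) and that for YY1 in 1, SF3A1 (3.5% and 1.3%). The median GC content was 62.3% in the 43 promoters, 65.3% in those of the tested genes and 58.3% in all. These matches describe letters in a window and say nothing of binding.

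Among the 18 tested hnRNP genes, the number lower was 4, 11, 12, 13 and 14 at the 5 times in order. These were 22.2%, 61.1%, 66.7%, 72.2% and 77.8%, where the share of all genes was 14.7%, 32.1%, 34.5%, 39.2% and 35.7%. The share at 18 h is near that of all genes. At 36 h 2 (HNRNPA1 and HNRNPH3) were higher, against 33.2% of all genes. At the other times 0 were higher, also at an unadjusted p under 0.05, where 14.8% to 31.8% of all genes were higher. The median log2 change of the 18 genes was -0.08 early (18 h) and -0.58 late (96 h).

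HNRNPAB, a member of the A/B family of hnRNPs, had the largest fall at 36 h of the 46 genes. Its log2 values were 12.26, 12.34, 12.23 and 12.44 at 0 h, 11.42, 11.72 and 11.73 at 18 h, 10.57, 10.50 and 10.39 at 36 h, 10.83 and 10.95 at 53 h, 11.46 and 11.19 at 72 h, and 11.92 and 11.73 at 96 h. The change was -0.69 ± 0.09 (SE) at 18 h and -1.83 ± 0.09 at 36 h, 3.56-fold lower (adjusted p = 4.2e-09), and -0.49 ± 0.11 at 96 h. No array after 0 h reached the lowest 0 h value and the lowest arrays were those of 36 h.

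HNRNPM, which regulates exon choice in many transcripts, read 11.89, 11.88, 11.81 and 12.03 at 0 h, 11.33, 11.52 and 11.52 at 18 h, 10.88, 10.93 and 10.88 at 36 h, 10.70 and 10.96 at 53 h, 10.68 and 10.77 at 72 h, and 11.16 and 11.23 at 96 h. The change was -1.18 ± 0.09 at 72 h, 2.26-fold lower (adjusted p = 5.2e-08). Its values at all later times lay below those of 0 h. With probe sets ending in _x_at or _s_at left out it was not called at 18 h (-0.31), 36 h (-0.66) or 96 h (-0.57).

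HNRNPA2B1, a close relative of HNRNPA1 that also binds RNA bound for transport, read 13.39, 13.34, 13.39 and 13.38 at 0 h and 13.47, 13.34 and 13.40 at 18 h, so the groups overlapped. It then read 12.86, 12.47 and 12.48 at 36 h, 12.36 and 12.33 at 53 h, 12.45 and 12.29 at 72 h, and 12.64 and 12.51 at 96 h. The change was 0.03 ± 0.08 at 18 h (adjusted p = 0.81) and -1.03 ± 0.09 at 53 h, 2.04-fold lower (adjusted p = 4.6e-07). Here the low arrays began at 36 h.

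HNRNPK, which binds C-rich RNA, changed by -0.18 ± 0.05 at 36 h and -0.38 ± 0.05 at 72 h for the probe set used, 200775_s_at. Its other probe set, 200097_s_at, was lower at 18 h (-0.32 ± 0.07), 36 h (-0.24 ± 0.07) and 96 h (-0.21 ± 0.08). It did not pass at 53 h (-0.04 ± 0.08) or 72 h (0.07 ± 0.08). HNRNPU, a scaffold protein of the nucleus, changed by -0.33 ± 0.06 at 36 h and -0.67 ± 0.06 at 72 h. HNRNPC, which binds uridine tracts and limits exonisation of Alu elements, was first lower at 53 h (-0.49 ± 0.11) for the probe set used, 200751_s_at. This probe set changed by -0.85 ± 0.11 at 72 h, and its 53 h call was lost without replicate 1 of that time (-0.29). Another, 200014_s_at, was lower at 36 h (-0.28 ± 0.07). HNRNPL, a regulator of CD45 splicing in lymphocytes, changed by -0.60 ± 0.15 at 53 h, which rested on replicate 2 of that time (-0.26 without it), and by -0.63 ± 0.15 at 72 h. HNRNPR and HNRNPD, the latter also known as AUF1 for its role in AU-rich mRNA decay, were lower from 36 h on for the probe sets used. Their changes were -0.80 ± 0.07 and -0.80 ± 0.10 at 53 h and -0.67 ± 0.07 and -1.01 ± 0.10 at 72 h. Of the 5 HNRNPD probe sets that passed the filter, 3 were lower at 18 h already. These were 209330_s_at (-0.23 ± 0.07), 221480_at (-0.51 ± 0.17) and 221481_x_at (-0.25 ± 0.08), where the one used gave -0.20 ± 0.09 and did not pass.

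HNRNPF, which like HNRNPH1 binds G-rich runs, was lower at every time, with -0.58 ± 0.10 at 18 h and -0.96 ± 0.10 at 36 h. HNRNPA3 was lower at 36 h (-0.50 ± 0.12), at 53 h (-0.48 ± 0.14, or -0.45 and not called without replicate 2 of 53 h) and at 96 h (-0.80 ± 0.14), but not at 72 h (-0.22 ± 0.14). The 72 h value depended on the probe set: 211932_at of HNRNPA3 changed by -1.40 ± 0.15, and the average of its 3 probe sets, -0.58, was called, as was -0.39 on centring on all probe sets and -0.22 with array weights. The U-like genes moved least: HNRNPUL1 passed at 72 h alone (-0.21 ± 0.07) and HNRNPUL2 at 36 h alone (-0.28 ± 0.09), and both calls were lost without 1 array (-0.18 without replicate 1 of 72 h, -0.24 without replicate 1 of 36 h).

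HNRNPA0 was lower at 96 h alone for the probe set used, 201054_at. This probe set changed by 0.07, 0.06, 0.06 and -0.09 at 18 h to 72 h, none of which passed, and by -0.58 ± 0.07 at 96 h. Its other probe set, 201055_s_at, was higher at 72 h by 0.24 ± 0.09 and did not pass at 96 h (0.12 ± 0.09). The 96 h call of the gene held under every setting. HNRNPH1 passed at 96 h alone for the probe set used, 213619_at (-0.39 ± 0.09), a call lost without replicate 2 of that time (-0.20). Its other probe sets were lower earlier: 213470_s_at changed by -0.79 ± 0.22, -0.91 ± 0.25 and -0.77 ± 0.25 over the 3 times from 36 h to 72 h, and 201031_s_at by -0.42 ± 0.14 at 72 h. Averaged, HNRNPH1 was called lower at 36 h (-0.28) and 72 h (-0.38). HNRNPA1, the classic antagonist of SRSF1 in splice site choice, was higher at 36 h by 0.42 ± 0.13 (adjusted p = 0.0099) for the probe set used, 214280_x_at, but the average of its 3 probe sets was -0.22 (adjusted p = 0.51). Its values were 10.96, 10.77, 10.70 and 10.99 at 0 h, 10.98, 10.74 and 10.91 at 18 h, 11.13, 11.36 and 11.32 at 36 h, 11.37 and 10.93 at 53 h, 10.95 and 10.86 at 72 h, and 11.08 and 10.65 at 96 h. Only the 36 h group stood wholly above 0 h, and HNRNPA1 was lower at no time. Its transcript has many processed pseudogenes of near-identical sequence, so its values are uncertain.

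**Figure D2:**
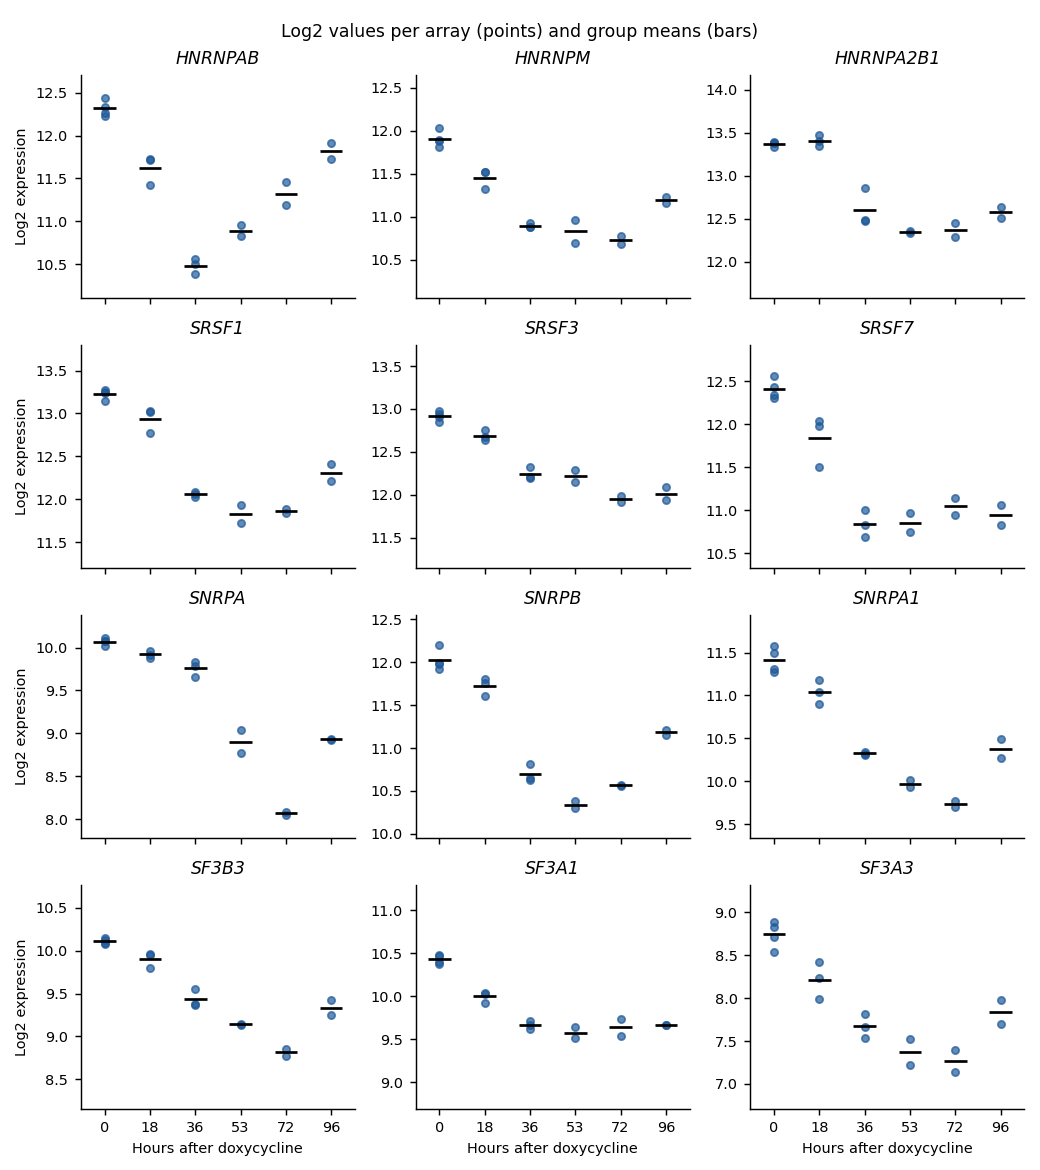
Log2 expression on each array (points) and the mean of each time (bars) against hours after doxycycline for the 3 genes of each family with the smallest adjusted p of the F test. Each panel spans the same range of log2 units, so slopes can be compared between panels. In HNRNPAB the lowest points are at 36 h, in SNRPA at 72 h, and in SRSF3, SRSF7 and SF3A1 the 96 h points stay near those of 72 h.

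Of the 9 SRSF genes, 5, 6, 5, 4 and 6 were lower at the 5 times in order (55.6%, 66.7%, 55.6%, 44.4% and 66.7%, where the share of all genes was 14.7%, 32.1%, 34.5%, 39.2% and 35.7%). The share at 72 h is near that of all genes. SRSF8 alone was higher, from 36 h on, when 25.1% to 33.2% of all genes were higher. SRSF1, the founding SR protein and a known oncoprotein when in excess, read 13.14, 13.24, 13.25 and 13.27 at 0 h, 12.77, 13.03 and 13.01 at 18 h, 12.07, 12.03 and 12.08 at 36 h, 11.93 and 11.73 at 53 h, 11.89 and 11.84 at 72 h, and 12.41 and 12.22 at 96 h. It was 2.63-fold lower at 53 h (-1.40 ± 0.08, adjusted p = 1e-08). Its 4 probe sets all gave lower values at every time. Every array after 0 h was below the lowest 0 h array, although its 18 h call, at -0.29, was lost without replicate 1 of that time (-0.20).

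SRSF3, the smallest SR protein, which also acts in mRNA export, read 12.97, 12.91, 12.94 and 12.85 at 0 h, 12.68, 12.76 and 12.64 at 18 h, 12.32, 12.21 and 12.20 at 36 h, 12.29 and 12.15 at 53 h, 11.99 and 11.92 at 72 h, and 12.09 and 11.93 at 96 h. It was 1.95-fold lower at 72 h (-0.96 ± 0.07, adjusted p = 2.4e-08) and differed between 72 h and 96 h by 0.06 ± 0.08. The 18 h group already lay below the 0 h group, by -0.23 ± 0.06.

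SRSF7, an SR protein with a zinc knuckle, read 12.44, 12.30, 12.35 and 12.57 at 0 h, 11.50, 11.98 and 12.04 at 18 h, 11.00, 10.69 and 10.83 at 36 h, 10.97 and 10.74 at 53 h, 11.15 and 10.95 at 72 h, and 11.06 and 10.83 at 96 h. For this probe set, 214141_x_at, the change was -1.57 ± 0.13 at 36 h (2.98-fold lower, adjusted p = 2.1e-07) and -1.56 ± 0.15 at 53 h. The probe set 201129_at of SRSF7 was lower too, by -1.13 ± 0.17 and -0.73 ± 0.19, whereas 213649_at changed by -0.08 ± 0.16 and 0.17 ± 0.18, neither of which passed. The size of the fall thus differed between probe sets, and with those ending in _x_at or _s_at left out it turned to 0.17 at 53 h.

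The remaining SRSF genes differed among themselves. SRSF10, a splicing repressor when dephosphorylated, was lower from 36 h on, with its largest change of -1.02 ± 0.10 at 36 h. Its 18 h call (-0.30 ± 0.10) was lost on leaving out any 1 of 5 arrays (0 h replicate 1 or 4, or any 18 h array, -0.25 to -0.32), with the replicate block (-0.25), with replicates 2 and 3 averaged (-0.35) and without _x_at and _s_at probe sets (-0.24). Other SRSF10 probe sets, 206095_s_at and 210178_x_at, were lower at 18 h by -0.73 ± 0.14 and -0.51 ± 0.12, while 204299_at did not pass (-0.24 ± 0.12). SRSF4 was lower at 36 h (-0.48 ± 0.10) and 53 h (-0.61 ± 0.11) and not at 72 h (-0.20 ± 0.11) or 96 h (-0.10 ± 0.11). SRSF6, read by 208804_s_at, was lower at 18 h by -0.74 ± 0.15 and at 36 h by -0.58 ± 0.15, and did not pass at 53 h (-0.23 ± 0.17) or 72 h (-0.02 ± 0.17). At 96 h it was again lower by -0.54 ± 0.17, a value of -0.42 that missed the threshold without replicate 2 of 96 h. Its other probe set, 206108_s_at, was lower at all 5 times, with -0.91 ± 0.18 at 18 h and its largest change of -1.53 ± 0.18 at 36 h. With both averaged SRSF6 was called lower at 53 h (-0.80) and 72 h (-0.37), and with the replicate block at 53 h (-0.27). SRSF5 passed at 96 h (-0.54 ± 0.18), a call lost without replicate 2 of 96 h (-0.35). At 36 h SRSF5 changed by -0.25 ± 0.16 and did not pass, but it was called lower with the replicate block (-0.25), with array weights (-0.37), when arrays were centred on the median of all probe sets (-0.36) and without replicate 1 of 36 h (-0.47).

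SRSF8, a gene that arose as a retrocopy of SRSF2, read 8.74, 8.26, 8.44 and 8.83 at 0 h, 8.69, 8.53 and 8.52 at 18 h, 8.98, 9.14 and 9.31 at 36 h, 8.98 and 9.16 at 53 h, 9.03 and 9.42 at 72 h, and 9.38 and 9.21 at 96 h. It was higher by 0.57 ± 0.14 at 36 h (adjusted p = 0.003) and by 0.73 ± 0.16 at 96 h (adjusted p = 0.0016). Its other probe set, 213152_s_at, gave 1.01 ± 0.19 and 1.05 ± 0.22. All arrays from 36 h on exceeded all 0 h arrays. Its calls at 53 h and 72 h each rested on 1 array, being 0.42 without replicate 2 of 53 h and 0.46 without replicate 2 of 72 h. SRSF11 did not pass at any time for the probe set used, 200686_s_at, while its probe set 213742_at rose, by 1.06 ± 0.19 at 72 h.

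Of the 11 SNRP genes 4 were lower at 18 h, 10 from 36 h and all 11 from 72 h on. The shares were 36.4%, 90.9%, 90.9%, 100% and 100% at the 5 times, against 14.7%, 32.1%, 34.5%, 39.2% and 35.7% of all genes. Higher at any of these times were 0 (0 also at an unadjusted p under 0.05), where 14.8% to 33.2% of all genes were. The median log2 change of the SNRP genes was -0.15, -0.70, -1.04, -1.18 and -0.67 at the 5 times. Whether this differs from the other families was not tested.

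Proteins particular to U1 and U2 come first. SNRPA encodes the A protein of the U1 snRNP, which binds a stem loop of U1 RNA. Its values were 10.07, 10.07, 10.02 and 10.11 at 0 h, 9.88, 9.92 and 9.96 at 18 h, 9.66, 9.79 and 9.83 at 36 h, 9.04 and 8.77 at 53 h, 8.09 and 8.05 at 72 h, and 8.92 and 8.94 at 96 h. The change of SNRPA was -0.31 ± 0.08 at 36 h, -1.17 ± 0.09 at 53 h and -2.00 ± 0.09 at 72 h, where it was 4.00-fold lower (adjusted p = 3.2e-10), the largest fall of the 46 genes. The 2 arrays of 72 h lay below all others, and the groups of 0 h, 53 h and 72 h did not overlap. SNRPC, which encodes the C protein of U1 and helps it hold the 5' splice site, was lower by -0.66 ± 0.10 at 36 h and -1.18 ± 0.11 at 72 h.

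SNRPA1 encodes the A' protein of the U2 snRNP, which with its B'' protein binds U2 RNA. It read 11.31, 11.27, 11.50 and 11.57 at 0 h, 10.90, 11.18 and 11.04 at 18 h, 10.32, 10.31 and 10.34 at 36 h, 10.02 and 9.93 at 53 h, 9.77 and 9.70 at 72 h, and 10.49 and 10.27 at 96 h. It was 3.20-fold lower at 72 h (-1.68 ± 0.10, adjusted p = 7.3e-09). Every later array was below the 0 h arrays. SNRPB2, which encodes that B'' protein, changed by -0.30 ± 0.08 at 36 h and -0.37 ± 0.10 at 72 h.

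The Sm ring proteins are shared by U1, U2, U4 and U5. SNRPB, which encodes SmB and SmB' and whose exon inclusion responds to Sm protein supply, read 11.92, 11.99, 11.97 and 12.20 at 0 h, 11.61, 11.80 and 11.76 at 18 h, 10.63, 10.65 and 10.81 at 36 h, 10.30 and 10.39 at 53 h, 10.56 and 10.57 at 72 h, and 11.16 and 11.21 at 96 h. It was 3.21-fold lower at 53 h (-1.68 ± 0.09, adjusted p = 2.9e-09). No later array overlapped 0 h, though the 18 h call, at -0.30, was lost without replicate 1 of 18 h (-0.24). SNRPD1 and SNRPF, also of the ring, changed by -1.41 ± 0.10 and -1.08 ± 0.09 at 36 h and by -1.43 ± 0.12 and -1.42 ± 0.10 at 72 h. SNRPG, SNRPD3 and SNRPE changed by -1.06 ± 0.08, -0.99 ± 0.09 and -0.79 ± 0.09 at 72 h. SNRPD2, the partner of SmD1 in the ring, passed only at 72 h (-0.31 ± 0.06) and 96 h (-0.18 ± 0.06), and the latter was -0.10 without replicate 1 of 96 h, which missed the threshold.

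Among the 8 SF3A and SF3B genes, 4 (50%) were lower at 18 h, 6 (75%) at 36 h and 7 (87.5%) at each later time. Of all genes, 14.7% were lower at 18 h, 32.1% at 36 h and 34.5% to 39.2% later. SF3A1, the largest subunit of SF3A, read 10.38, 10.46, 10.48 and 10.40 at 0 h, 9.93, 10.03 and 10.04 at 18 h, 9.71, 9.66 and 9.61 at 36 h, 9.64 and 9.51 at 53 h, 9.74 and 9.54 at 72 h, and 9.66 and 9.67 at 96 h. Its change was -0.43 ± 0.07 at 18 h (adjusted p = 0.0006) and -0.86 ± 0.08 at 53 h, 1.81-fold lower. From 36 h on its values stayed within a narrow band below both the 0 h and the 18 h arrays.

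SF3A3, the SF3A subunit known as SF3a60, read 8.71, 8.88, 8.83 and 8.54 at 0 h, 7.99, 8.42 and 8.23 at 18 h, 7.54, 7.82 and 7.66 at 36 h, 7.52 and 7.22 at 53 h, 7.40 and 7.14 at 72 h, and 7.98 and 7.70 at 96 h. It was 2.77-fold lower at 72 h (-1.47 ± 0.15, adjusted p = 1.4e-06), and its 18 h change of -0.53 was -0.41 and missed the threshold without replicate 1 of 18 h. It scattered more within groups than SF3A1. SF3A2, the third subunit, was lower from 36 h on (-0.97 ± 0.18), but its 53 h and 96 h calls each rested on replicate 1 of that time, with -0.47 and -0.56 without it.

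SF3B3, a propeller protein that holds the SF3B complex together, read 10.12, 10.15, 10.09 and 10.08 at 0 h, 9.96, 9.95 and 9.79 at 18 h, 9.56, 9.38 and 9.37 at 36 h, 9.13 and 9.15 at 53 h, 8.86 and 8.78 at 72 h, and 9.42 and 9.24 at 96 h. It was 2.45-fold lower at 72 h (-1.29 ± 0.08, adjusted p = 1.3e-08). The groups from 18 h on did not overlap 0 h, but its 18 h call (-0.21, adjusted p = 0.045) was lost on leaving out any 1 of 13 arrays, the value then running from -0.16 to -0.24. With probe sets ending in _x_at or _s_at left out, its 36 h change of -0.67 became -0.32 and was not called. SF3B4, which contacts RNA upstream of the branch site, changed by -1.02 ± 0.09 at 36 h and -0.52 ± 0.11 at 96 h. SF3B5 and SF3B2 moved least among those that fell, by -0.52 ± 0.09 and -0.32 ± 0.07 at 72 h.

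SF3B1, which clamps the branch site and is the subunit most often mutated in blood cancers, passed as lower at no time. It read 12.39, 12.21, 12.19 and 12.15 at 0 h, 12.35, 12.25 and 12.27 at 18 h, 12.44, 12.49 and 12.63 at 36 h, 12.48 and 12.28 at 53 h, 12.45 and 12.36 at 72 h, and 12.32 and 12.07 at 96 h. At 36 h it was higher by 0.28 ± 0.08 (adjusted p = 0.0065), a rise of 0.17 that did not pass when arrays were centred on the median of all probe sets. The 36 h arrays lay above the 0 h arrays, and the other groups overlapped them. Its probe sets 201070_x_at and 214305_s_at gave 0.75 ± 0.11 and 0.68 ± 0.10 at 72 h, where the probe set used gave 0.17 ± 0.09. Under the same centring SF3B1 was called lower at 96 h (-0.23), where it stood at -0.04 ± 0.09 without it, and HNRNPA1 (0.30) and HNRNPH3 (0.22) also missed the threshold at 36 h, as did SRSF8 at 53 h (0.35).

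Between 72 h and 96 h, 14 of the 46 genes rose, 4 fell and 28 did not pass, with a median change of 0.11, where 17.1% of all genes rose and 10.1% fell. The 14 comprised 8 SNRP genes, 3 hnRNP genes (HNRNPAB, HNRNPM, HNRNPD), SF3B3 and SF3A3, and SRSF1. SNRPA changed by 0.86 ± 0.10 (adjusted p = 2.8e-05), SNRPF by 0.77 ± 0.11, SNRPA1 by 0.65 ± 0.12 and SNRPB by 0.61 ± 0.10. For SNRPA, SNRPA1 and SNRPB both 96 h arrays lay above both 72 h arrays and below every 0 h array.

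The 4 genes lower at 96 h than at 72 h were hnRNP genes: HNRNPA3 (-0.58 ± 0.16), HNRNPH3 (-0.49 ± 0.12), HNRNPA0 (-0.49 ± 0.08) and HNRNPDL (-0.24 ± 0.08). The other probe set of HNRNPA0, 201055_s_at, changed by -0.12 ± 0.11 and did not pass. SRSF3, SRSF7, SF3A1 and HNRNPA2B1 did not pass in either direction (0.06 ± 0.08, -0.10 ± 0.17, 0.02 ± 0.09 and 0.20 ± 0.11). With 2 arrays on each side the counts rested on single arrays. The number higher was 8 without replicate 2 of 72 h, and also 8 without replicate 1 of 96 h. The 6 genes lost were the same in both cases: HNRNPAB (0.37 and 0.41), HNRNPD (0.31 and 0.19), SF3A3 (0.44 and 0.43), SNRPC (0.35 and 0.47), SNRPD1 (0.38 and 0.42) and SNRPG (0.30 and 0.34). The number lower was 1 without replicate 1 of 72 h and 2 without replicate 2 of 96 h. Over all genes, the number higher went from 1250 to 851 without replicate 2 of 72 h and to 875 without replicate 1 of 96 h. The number of all genes lower went from 738 to 386 without replicate 1 of 72 h and to 717 without replicate 2 of 96 h. With probe sets averaged, HNRNPH3 turned to 0.019, SF3B1 was called lower (-0.44), and HNRNPA3 (-0.30), HNRNPDL (-0.23), SRSF1 (0.28), SF3B3 (0.32), HNRNPM (0.48) and SNRPD1 (0.43) missed the threshold.

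**Figure D3:**
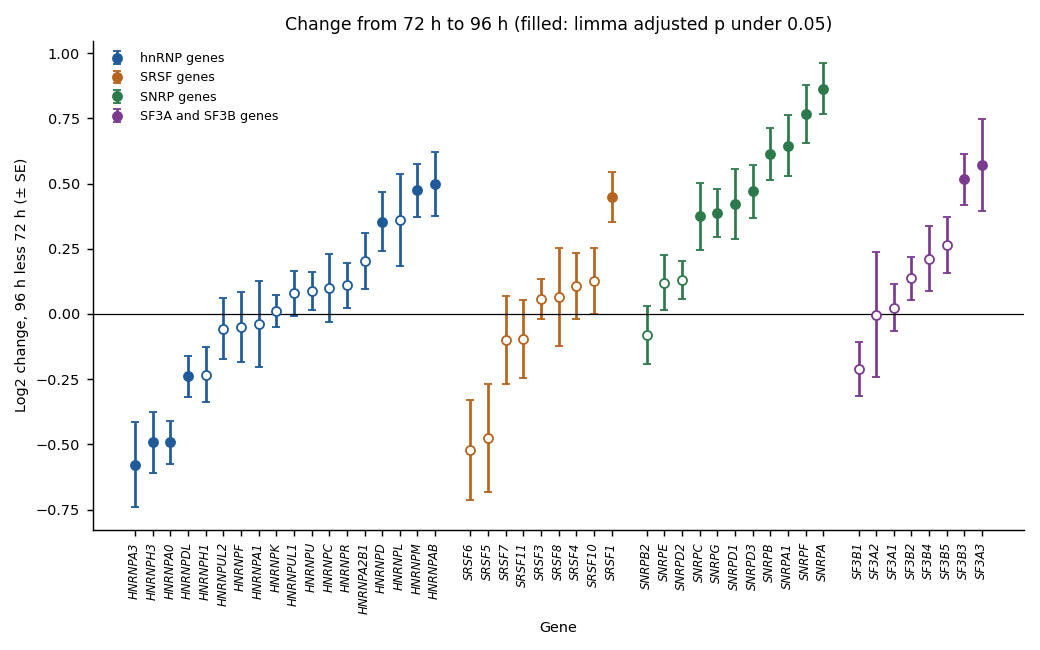
Log2 change from 72 h to 96 h with its standard error for each of the 46 tested genes, grouped by family and ordered by size, with filled points where the limma adjusted p was under 0.05. The 8 filled SNRP points run from 0.37 (SNRPC) to 0.86 (SNRPA), and the 4 filled points below 0 are hnRNP genes.

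Of the 46 genes, 30 had more than 1 probe set, and 99 of the 106 probe sets passed the filter. At 72 h, 70 of these 99 were lower and 6 higher, against 36.7% and 29.5% of all probe sets that passed. In the model over all probe sets, only HNRNPDL and HNRNPH3 had probe sets called in opposite directions at the same time. For HNRNPDL, a paralogue of HNRNPD, the probe set used (209067_s_at) was lower at 53 h by -0.28 ± 0.07 and 209068_at by -0.66 ± 0.17, while 212454_x_at was higher by 0.64 ± 0.22. The same 3 disagreed at 36 h and 96 h, when 212454_x_at stood at 0.63 ± 0.20 and 0.63 ± 0.22, and the averaged probe sets of HNRNPDL missed the threshold at 36 h (-0.17), 53 h (-0.07) and 72 h (-0.10). For HNRNPH3, a relative of HNRNPH1, 208990_s_at was higher at 36 h by 0.34 ± 0.09, and 210110_x_at and 210588_x_at were lower by -0.26 ± 0.08 and -0.30 ± 0.08. At 72 h all 4 of its probe sets were lower, by -0.26 to -0.93, the call of the one used being lost without replicate 2 of 72 h (-0.17). Probe positions within transcripts were not used here, so which isoforms these probe sets read was not tested.

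**Figure D4:**
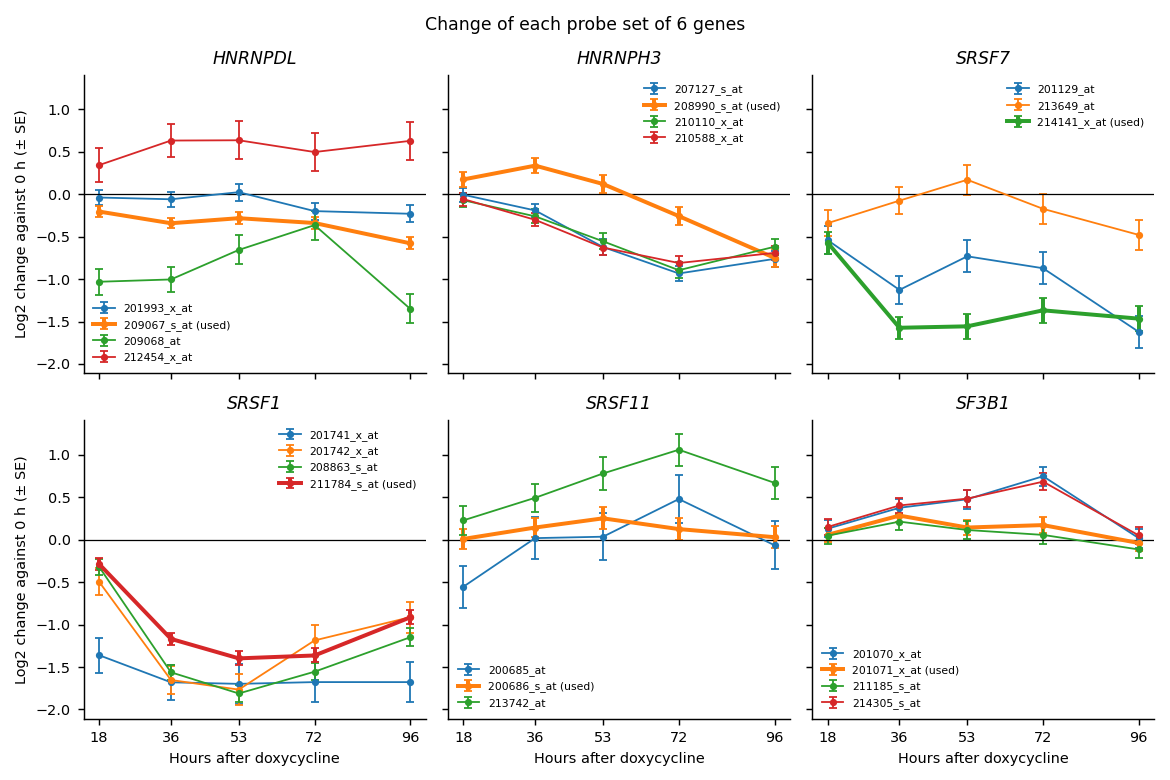
Log2 change against 0 h, with standard error, of each probe set that passed the filter for 6 genes, against hours after doxycycline, with the probe set used for the gene drawn thicker. In HNRNPDL one line lies above 0 (0.63 at 36 h) while the others lie at or below it, and in HNRNPH3 the probe set used starts above the other 3 and meets them at 96 h.

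Other parts of the spliceosome were read from lists of their own. Of 7 tested U2AF and branch site genes, 7 were lower at 36 h and at 53 h and 6 (85.7%) at 72 h. The share of all genes lower at these times was 32.1%, 34.5% and 39.2%. Higher at any time against 0 h were 0 of the 7 (0 also at an unadjusted p under 0.05), where 14.8% to 33.2% of all genes were. DDX46, a helicase that remodels U2 at the branch site, changed by -1.39 ± 0.09 at 72 h (adjusted p = 1.1e-08), and U2SURP, a U2-associated SR protein, by -1.13 ± 0.10. Of 18 genes for U1, U5 and U4/U6 proteins, 13 (72.2%) were lower at 36 h and 17 (94.4%) at 72 h, against 32.1% and 39.2% of all genes. Higher at these times were 0 (1 at 72 h at an unadjusted p under 0.05), against 33.2% and 29.3% of all genes. PPIH, a cyclophilin of the U4/U6 snRNP, changed by -1.36 ± 0.11 at 72 h, and USP39, needed to join the tri-snRNP, by -1.34 ± 0.11. All 8 tested LSM genes, whose ring binds U6 RNA, were lower at 53 h, 72 h and 96 h, against 34.5%, 39.2% and 35.7% of all genes. LSM5 changed by -1.53 ± 0.09 and LSM3 by -1.37 ± 0.09 at 72 h.

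Of 18 genes of the PRPF19 complex and the catalytic steps, 11 (61.1%) were lower and 1 (5.56%) higher at 72 h, against 39.2% and 29.3% of all genes. EIF4A3, of the exon junction complex, stood at -0.62 ± 0.07 at 72 h and CDC5L, of the PRPF19 complex, at -0.57 ± 0.07. Of 16 SR kinase and SR-related genes, 7 (43.8%) were lower and 6 (37.5%) higher at 53 h, near the 34.5% and 31.8% of all genes. At 72 h 8 (50%) were lower and 1 (6.25%) higher, against 39.2% and 29.3% of all genes. SRRM1, a splicing coactivator, was lower by -0.95 ± 0.10 at 72 h. PNN, of the exon junction periphery, was higher by 0.79 ± 0.08 at 72 h for the probe set used, but lower by -0.40 when its probe sets were averaged. Of 27 other RNA-binding regulators, 12 (44.4%) were lower and 7 (25.9%) higher at 72 h, near the 39.2% and 29.3% of all genes, with a median of -0.07. ELAVL1, which stabilises AU-rich mRNAs, changed by -1.14 ± 0.08, and KHDRBS1 (Sam68) by -0.78 ± 0.06. EWSR1, which gives its first part to the fusion, was lower by -0.84 ± 0.10 at 72 h.

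Cell cycle genes moved at the same times. Of 24 such genes, 13 (54.2%) were lower at 18 h and all 24 at each later time, with medians of -0.48, -2.29, -3.01, -3.42 and -1.24 at the 5 times. Of all genes, 14.7% were lower at 18 h and 32.1% to 39.2% later. All 24 were higher at 96 h than at 72 h, with a median of 2.12, where 17.1% of all genes rose. Per array, the median difference of the 46 splicing genes from 0 h ran from -0.23 to -0.13 at 18 h, -0.67 to -0.50 at 36 h, -0.72 to -0.66 at 53 h, -0.76 to -0.63 at 72 h and -0.66 to -0.58 at 96 h. By this median the 46 genes were near their 72 h level at 96 h, but it pools families that moved differently. From 72 h to 96 h the median change against 0 h went from -1.18 to -0.67 for SNRP genes and from -0.76 to -0.64 for SF3 genes. It went from -0.45 to -0.58 for hnRNP genes and from -0.20 to -0.54 for SRSF genes. The part of proliferation in the splicing genes' values was not tested.

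**Figure D5:**
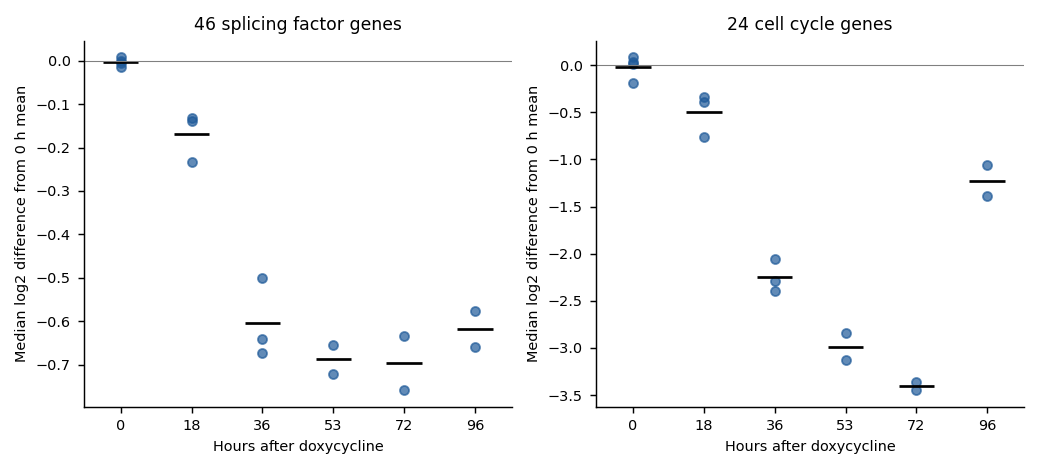
Median log2 difference from the 0 h mean on each array (points), with the mean of each time (bars), for the 46 tested splicing factor genes (left) and for 24 cell cycle genes (right), against hours after doxycycline. The vertical scales differ: the splicing genes lie between -0.76 and -0.50 from 36 h on, and the cell cycle genes fall to -3.45 at 72 h and lie between -1.39 and -1.06 at 96 h.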

How the data were processed

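For 16 arrays the authors deposited log2 values of each probe set, and the submitters' processing notes name GCRMA. Its version and settings were not given in the sources used here. The values (0.388 to 15.2) show the log2 scale. GCRMA adjusts background by probe sequence and compresses dim values. Array number limits the precision.

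Of 22277 probe sets, 19070 have 1 gene symbol in GEO's annotation of the array, and 1043 have several. The 19 of the latter that include a symbol of the families described were not used. The probe set of highest mean stood for each of 11963 genes, and genes reaching log2 4 on 2 arrays were tested (7304). The fit used limma 3.58.1 in R 4.3.3 with data.table (version 1.17.8) for reading (1 mean per time over all 16 arrays and eBayes with a trend, leaving 10 residual degrees of freedom). P-values were adjusted by Benjamini-Hochberg over all tested genes, per comparison, and 0.05 was the threshold. The script was tested on simulated data. Python 3.11.15 with matplotlib 3.10.9 drew the figures.

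The members, lists and tests were chosen with earlier results of these data known. Given in full were the 3 genes of each family with the smallest adjusted p of the F test and the gene of each family with the largest rise if it passed. From each other spliceosome list the 2 genes with the smallest adjusted p of the F test were named, with FLI1, EWSR1 and genes whose probe sets disagreed in call. Other members were free to be named.

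Shared replicate numbers were checked for pairing by the correlation of deviations from the group means. Arrays of the same number correlated at 0.632, 0.545 and 0.508 for 0 h with 18 h, at 0.304, 0.214 and 0.286 for 0 h with 36 h, and at 0.366, 0.244 and 0.331 for 18 h with 36 h. For later times these same-number correlations ran from -0.207 to 0.248. Arrays of different numbers were not correlated, so the check cannot tell whether the numbers pair samples. The main fit took no pairing. The replicate block was an alternative. Other alternatives were no filter, a filter at log2 6, 2 centrings, a second quantile normalization, averaged probe sets, no _x_at and _s_at probe sets, no trend, array weights, only the 2 groups compared, replicates 2 and 3 averaged, and leaving out each array. Centring on the genes tested was added after seeing the data.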

Additional observations from a re-analysis of the deposited data

Results flagged for a closer look

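Among the 4 arrays of 0 h, replicate 4 stood apart from the other 3 for 2 of the 46 genes by Dixon's criterion. For SF3B4 it read 9.59, where the others read 9.40 to 9.43. For SNRPB2 it read 11.76, where the others read 11.40 to 11.45. Chance gives such a gap in about 1 of 20 groups, and groups of 2 or 3 arrays were not examined in this way.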

How the results depend on the processing

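Of 182 calls over the 46 genes, 148 held on leaving out each array in turn and 128 under every setting in which the gene was tested. Leaving out 1 array, the number lower ran from 10 to 18 at 18 h, 33 to 35 at 36 h, 30 to 34 at 53 h, 33 to 35 at 72 h and 34 to 39 at 96 h. The number higher ran from 1 to 2 at 53 h and 0 to 2 at 72 h, and the number passing the F test from 40 to 44. Over all 7304 genes, the number lower at 18 h ran from 686 to 1182. For 96 h against 72 h, 848 to 1355 of all genes were higher and 386 to 872 lower. Of the 46, 8 to 15 were higher and 1 to 5 lower in that comparison. With probe sets ending in _x_at or _s_at left out, which drops many genes from the test, 4, 15, 18, 18 and 20 were lower at the 5 times, 1 was higher at 36 h, 5 were higher at 96 h than at 72 h, and 24 passed the F test. With all probe sets averaged, 2, 2 and 3 were higher at 36 h, 53 h and 72 h, and 2 lower at 96 h than at 72 h. Centring on all probe sets left 1 higher at 36 h and 0 at 53 h. Centring on the genes tested gave 3 and 2 higher at 53 h and 72 h, and 7 lower at 96 h than at 72 h. The second quantile normalization and array weights each gave 2 higher at 53 h and 2 at 72 h. With replicates 2 and 3 averaged, 11 were lower at 18 h, and 1 and 0 were higher at 36 h and 53 h. The replicate block, run in case the numbers pair samples, gave 2 higher at 53 h and moved no other count by over 1.5 times. Beside SRSF10, SRSF5 at 36 h and SRSF6 at 53 h, the block ended the calls of SNRPG at 18 h (-0.24) and of SF3B2 (-0.18) and SNRPD2 (-0.17) at 96 h, and added HNRNPD at 18 h (-0.26), HNRNPA1 at 53 h (0.34) and, for 96 h against 72 h, SF3B5 (0.27), SRSF5 (-0.48) and SRSF6 (-0.52).

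The following turned in sign. With probe sets averaged, HNRNPA1 was at -0.22 at 36 h, HNRNPH3 at -0.10 at 36 h, -0.42 at 53 h and 0.019 for 96 h against 72 h, U2SURP at -0.10 for 96 h against 72 h, KHDRBS1 at 0.39 at 53 h, and PNN at -0.38, -0.63, -0.39, -0.40 and -0.44 at 18 h to 96 h. Without _x_at and _s_at probe sets, HNRNPA1 was at -0.11 at 36 h, SRSF7 at 0.17 at 53 h, and PNN at -0.73, -1.19, -0.80, -0.75 and -0.90. The cause was not tested. Centring on all probe sets moved the median of all genes to -0.16, -0.27 and -0.29 at 53 h, 72 h and 96 h, from -0.01, -0.11 and -0.10, and the share of calls that were lower at 96 h from 58.8% to 70.1%. Centring on the genes tested moved that share for 96 h against 72 h from 37.1% to 48.2%. Groups of 2 arrays and compressed dim values limit what small changes can show.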
